A study of Drosophila melanogaster with 3 samples.

Results

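Of 5246 optimal peaks of the CG7368 fusion protein in Drosophila melanogaster prepupae, 580 (11.1%, Wilson 95% interval 10.2 to 11.9) had their summit 0 to 200 bp upstream of a single protein-coding promoter. A summit is the point of highest signal inside a peak, and optimal peaks are the regions that the authors' test of reproducibility between replicates retained. Members were chosen by the position of the summit: it had to lie 0 to 200 bp upstream of the nearest transcription start site (TSS) of a protein-coding gene, read along that gene's strand, with no protein-coding TSS of another gene on the opposite strand within 500 bp. They were thus selected on peak calls made from the same 3 libraries, so their number, their position inside the window and their presence in the optimal list are descriptions and not tests. The 580 members lay at 580 different TSSs of 559 genes, and no member overlapped another.

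Chromatin immunoprecipitation followed by sequencing (ChIP-seq) maps where a protein sits on DNA by precipitating the protein with the fragments it holds. The single group consisted of 3 biological replicates of whole prepupae, males and females together and of unknown age, from the fly strain CG7368-GFP. This transgenic line carries CG7368 with enhanced green fluorescent protein at its C terminus, and the precipitating antibody was raised against that tag according to the description, while the antibody field of the labels reads CG7368. The chromatin was sonicated to 200 to 800 bp. All tissues of the animal were mixed, so a weak peak in most cells and a strong one in few cells cannot be told apart. The sources used here do not say whether the untagged gene product was still made, and the control experiment named in the labels is not analysed here.

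A protein-coding promoter is read by RNA polymerase II from its TSS, and the DNA just upstream is usually kept free of nucleosomes so that regulators can bind. Some fly promoters carry a TATA box shortly before the TSS, where the TATA-binding protein sits. Others, often of genes active in most cells, lack it and hold elements such as the DNA replication-related element (DRE), while GA repeats are bound by GAGA factor, a protein that helps to keep promoters open.

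The sequences at the 8 members of highest signal, leaving out 1 chromosome arm, are shown because they carry the base composition that marks the strong end of the set. Each is the 50 bases either side of the summit in dm6, from the RefSeq release of that assembly, 5′ to 3′ along the strand of the gene, and windows that would have passed the TSS end just before it, a trimming decided after the values were seen. Capitals mark TATAAA or, where the word is on the other strand, TTTATA.
Ugalt (chrX:2703853-2703935, minus strand): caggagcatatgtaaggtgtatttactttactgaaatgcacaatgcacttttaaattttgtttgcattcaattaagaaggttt
CG14100 (chr3L:19590557-19590657, minus strand): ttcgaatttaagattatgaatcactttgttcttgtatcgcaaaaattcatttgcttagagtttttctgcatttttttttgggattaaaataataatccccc
CG13921 (chr3L:1746716-1746816, plus strand): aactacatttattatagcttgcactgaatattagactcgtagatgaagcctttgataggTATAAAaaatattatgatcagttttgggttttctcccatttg
Hsp27 (chr3L:9383869-9383969, plus strand): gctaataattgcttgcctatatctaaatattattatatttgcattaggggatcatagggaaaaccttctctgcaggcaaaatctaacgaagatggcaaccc
Trp1 (chr2L:10010166-10010266, plus strand): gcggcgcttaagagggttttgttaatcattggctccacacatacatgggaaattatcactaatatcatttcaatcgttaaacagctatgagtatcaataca
CG18549 (chr3R:12449128-12449228, plus strand): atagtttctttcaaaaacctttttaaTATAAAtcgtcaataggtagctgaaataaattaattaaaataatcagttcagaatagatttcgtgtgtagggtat
CG31145 (chr3R:23669788-23669888, minus strand): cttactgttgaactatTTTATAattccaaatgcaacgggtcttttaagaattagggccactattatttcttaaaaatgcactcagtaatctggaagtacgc
Gapdh2 (chrX:15867933-15868033, plus strand): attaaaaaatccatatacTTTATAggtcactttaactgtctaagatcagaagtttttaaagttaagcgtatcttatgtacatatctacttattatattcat
A and T made up 63.4% (Hsp27 and Trp1) to 76.2% (Gapdh2) of these windows, and 4 of the 8 held TATAAA on either strand.

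A second set of windows, chosen after the values were seen, shows members of lower signal than the first set, with summits 18 (Pi3K21B) to 69 bp (RpL23A) upstream. Their optimal signals were 347 (RpL23A), 308 (RpL22), 291 (Pi3K21B), 285 (papi) and 161 (RpS12). RpL23A, RpL22 and Pi3K21B were thus still among the 145 members of highest signal, which had signals from 286 upwards. In the first set Ugalt lay 33 bp upstream and the others 83 to 179 bp. Capitals mark GAGAG or its complement CTCTC (papi), TATCGATA, the core of the DRE (RpS12), and CAACACTG or its complement CAGTGTTG (RpL23A and Pi3K21B); none of these words is in the RpL22 window.
RpL23A (chr3L:1668673-1668773, minus strand): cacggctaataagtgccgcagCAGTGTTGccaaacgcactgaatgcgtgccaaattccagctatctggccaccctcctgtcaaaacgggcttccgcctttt
RpL22 (chrX:765131-765216, minus strand): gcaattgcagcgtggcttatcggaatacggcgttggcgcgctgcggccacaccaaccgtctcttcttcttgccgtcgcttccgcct
papi (chr2L:2221973-2222073, plus strand): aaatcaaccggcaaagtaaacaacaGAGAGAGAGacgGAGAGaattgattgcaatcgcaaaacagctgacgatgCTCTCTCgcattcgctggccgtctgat
RpS12 (chr3L:13023269-13023351, plus strand): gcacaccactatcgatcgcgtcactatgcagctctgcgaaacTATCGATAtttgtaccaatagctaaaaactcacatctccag
Pi3K21B (chr2L:297812-297879, plus strand): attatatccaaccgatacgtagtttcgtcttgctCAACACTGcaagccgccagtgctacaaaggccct
These windows held 38.4% (RpL22) to 55.4% (RpS12) A and T, and every one of them was below all 8 of the first set. The sets differed in distance from the TSS and in kind of gene as well as in signal. Which of these goes with the difference in A and T was not tested on these windows. RpL23A, RpL22 and RpS12 encode proteins of the cytosolic ribosome, papi a Tudor-domain protein of the piRNA pathway and Pi3K21B the regulatory subunit of phosphoinositide 3-kinase.

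The pooled list, made from all 3 libraries together, and each replicate list held 30000 regions. The optimal list consists of the 5246 regions of highest signal in the pooled list, so a comparison of optimal peaks with the rest of the pooled list compares high with low signal. In each replicate, the 5246 regions of highest signal are called its top regions below. Signals are the authors' values, and no header or label gives their formula. The number of reads is unknown, and signals were compared only within a list. Over 3 replicates the two-sided exact sign-flip test cannot give a p below 0.25 and so cannot reach 0.05, and every p of 0.25 below is that smallest value.

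Summits were more frequent before the TSS than after it. In the optimal list 580 summits lay 0 to 200 bp upstream of a single promoter and 191 lay 1 to 200 bp downstream, a ratio of 3.04. Among top regions the ratios of replicates 1, 2 and 3 were 2.51, 3.19 and 2.79, or 1.49 ± 0.17 on the log2 scale (SD, n = 3), given with no test since position chose the members. The log2 ratio was 0.78 with an upstream window of 100 bp and 0.67 over all regions of a replicate. All 3 replicates had at least 2.51 upstream summits for each downstream one. The pooled list as a whole, with its many regions of low signal, had 1892 upstream and 1129 downstream summits, a ratio of 1.68. Within the window, members had a median distance of 109.5 bp from the TSS, with quartiles at 59.75 and 155 bp.

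**Figure D1:**
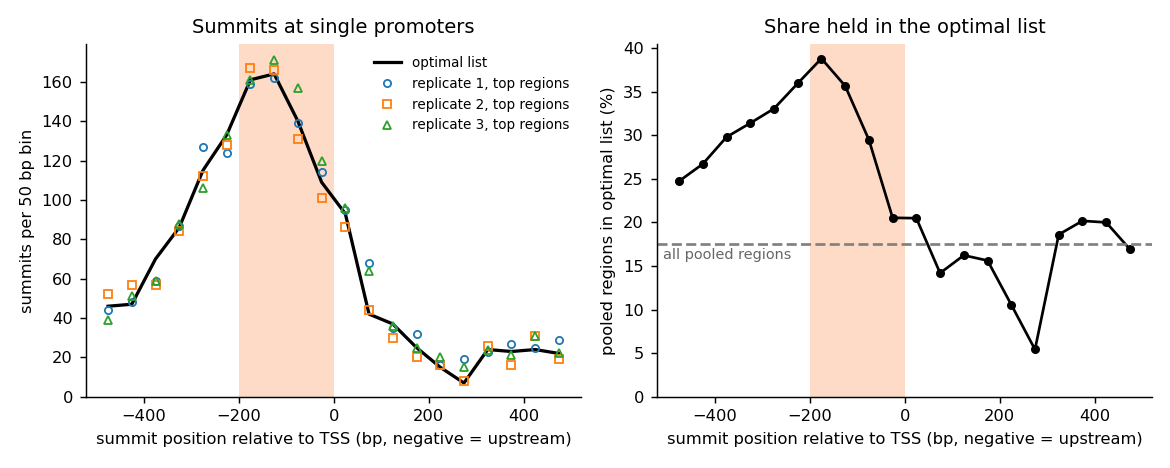
Left, the number of summits per 50 bp bin (y axis) against position relative to the TSS in bp (x axis, negative upstream) at single promoters, for the optimal list (line) and the top regions of each replicate (symbols), with the member window shaded. Right, the percentage of pooled regions in each bin that the optimal list holds, with all pooled regions dashed at 17.5%. Counts are highest in the bin from 200 to 151 bp upstream and the bin next to it, with 161 and 164 optimal summits.

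The optimal list held 580 of the 1892 pooled regions of this class, or 30.7% (Wilson interval 28.6 to 32.8), where it held 17.5% of all 30000 pooled regions. It held 45.2% of regions at divergent promoters, where a summit within 500 bp of a TSS also had a TSS of another gene on the opposite strand. It held 23.1% of the other summits within 500 bp of a single promoter and 14.4% of summits farther from any protein-coding TSS. The share was thus between those of divergent promoters and of the other single-promoter summits. It differed with distance: 38.8% of pooled regions with a summit 151 to 200 bp upstream were in the optimal list, and 21.2% of those 0 to 50 bp upstream. These shares were among the values that defined the members and carry no test.

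In single replicates the same class made up 11.0%, 10.8% and 11.7% of the top regions of replicates 1, 2 and 3. Its share of the remaining regions was 4.66%, 5.51% and 5.88% in the same order. Every replicate had a higher share in its top regions, by 5.80 ± 0.491 percentage points (SD, n = 3), again a description. With an upstream window of 100 bp the difference was 1.803 points. The same difference was 7.03 ± 0.416 points at divergent promoters and 4.20 ± 1.23 points for the other single-promoter summits. Far from TSSs it was -17.0 ± 1.41 points.

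The summit lay between genes for 313 members, inside the gene whose TSS was nearest for 209 and inside another gene for 58. A TSS can lie inside its own gene because genes often start at several places, and 374 members (64.5%) were at the TSS farthest 5′. A noncoding gene started within 500 bp of 38 members, on either strand, and 6 of these starts were nearer to the summit than the protein-coding TSS. In all, 18 members had a second protein-coding gene starting on the same strand within 500 bp. The X chromosome held 97 members (16.7%) and 19.0% of all optimal peaks, and 2R held 119 (20.5%) and 17.1%.

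Median signals of the classes lay near each other, in lists where every class is cut at the same lower limit of signal. Members had a median of 174, from 104 to 3148, beside 197 at divergent promoters, 170 at the other single-promoter summits and 165 far from TSSs. Among top regions, the median of the class was 0.902, 0.901 and 0.962 times that of divergent promoters in replicates 1, 2 and 3, and 1.07, 1.03 and 1.07 times that of the other single-promoter summits. The class was below divergent promoters and above the other single-promoter summits in each replicate (exact sign-flip p = 0.25 for both). Both ratios depended on the definition. The second turned to a log2 ratio of -0.14 with an upstream window of 100 bp. The first turned to a log2 ratio of 0.013 among the 2623 regions of highest signal in each replicate. The shared lower limit draws medians together. Over all regions of a replicate the log2 ratios were -0.370 ± 0.144 against divergent promoters and 0.300 ± 0.0468 against the other single-promoter summits. Among top regions they were -0.119 and 0.0808. Members made up 47 of the 250 highest optimal peaks (18.8%) and 6 of the 25 highest.

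The 2 strongest members had the same ranks in every replicate. Ugalt, which encodes a transporter of UDP-galactose into the Golgi, had signals of 747, 1272 and 1151 in replicates 1, 2 and 3, rank 1 in each, with the summit 37, 31 and 33 bp upstream. CG14100 had signals of 488, 955 and 832 and rank 2 in each, with the summit 104, 91 and 83 bp upstream. Signals of the class were lower in replicate 1 as a whole, with a median of 44.7 among top regions beside 71.2 and 68.2, so ranks and not signals are to be set side by side between replicates. The third, mRpL41, a gene for a protein of the mitochondrial ribosome, had signals of 393, 578 and 504 and ranks 11, 15 and 19. CG13921 had signals of 341, 570 and 559 and ranks 19, 18 and 14, so it passed mRpL41 in replicate 3. Both lay about equally far out, 142 and 141 bp upstream in the optimal list.

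The next members were named by rank alone. Hsp27, a small heat shock protein gene, had signals of 302, 570 and 523, ranks 27, 19 and 17, and a summit 144 bp upstream. Trp1, whose product takes part in moving proteins into the endoplasmic reticulum, had signals of 289, 529 and 491 and a summit 138 bp upstream. Gapdh2, which encodes the glycolytic enzyme glyceraldehyde-3-phosphate dehydrogenase, had signals of 289, 456 and 412 and a summit 162 bp upstream. CG18549 (optimal signal 1302), Tina-1 (1206) and CG31145 (1184) complete the first 10.

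Ranks 11 to 25 among members ran from an optimal signal of 1070 at Hpf1, which encodes a factor of histone ADP-ribosylation, to 789 at TRAM, a gene of the translocon at the endoplasmic reticulum. Between them came the casein kinase gene gish (1061), the ribosome biogenesis factor gene eIF6 (1042) and the transporter gene MFS18 (1002). The tyrosine phosphatase gene Ptpmeg2 (978), the peptidyl-prolyl isomerase gene Fkbp14 (964), the phosphoserine phosphatase gene aay (958) and the wing vein gene px (893) followed. The integrin gene scb (888), the deadenylase gene PAN3 (885), SLC5A11 (867), MFS10 (839), the tyrosine kinase gene Btk (797) and brwl (794) were the others. The worst rank of any of the 25 in a single replicate was 164, at TRAM in replicate 1, and 22 members ranked within the first 100 of every replicate.

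**Figure D2:**
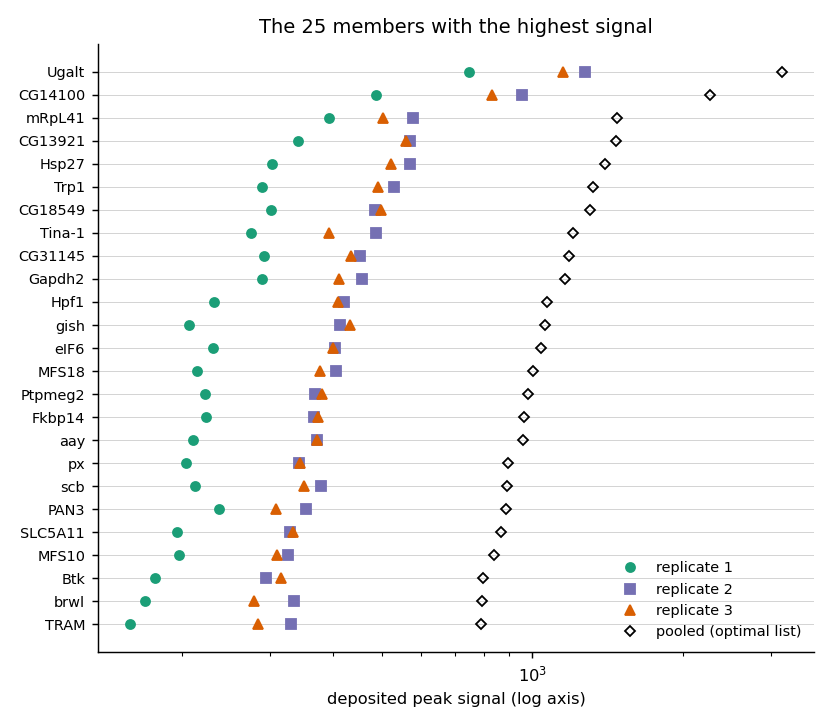
Deposited signal (x axis, log scale) of the 25 members of highest signal (y axis, by nearest gene), in each replicate (filled symbols) and in the pooled data (open diamonds). Ugalt lies highest in every list, at 747, 1272 and 1151 in the replicates.

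Summits at the strong members were repeated more closely than at the weak ones. A region of every replicate's full list overlapped 555 members (95.7%), and over these the 3 replicate summits spanned a median of 42 bp, with quartiles at 21 and 79 bp. The span was 29 bp for members ranked 1 to 100, 33 bp for the next 100, 43 bp for the next 200 and 67 bp for the last 180. All 3 replicate summits fell inside the member window for 382 of the 555 (68.8%), and for 12 none did. Top regions of all 3 replicates overlapped 374 members (64.5%), beside 66.1% of all optimal peaks and 70.4% at divergent promoters. A 50% reciprocal overlap lowered the members' share to 51.4%.

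Base composition at the summit differed between this class and the others in each replicate. Within 25 bp of the summit, A and T made up 59.2%, 60.05% and 59.8% of bases in replicates 1, 2 and 3 among top regions. Windows of the same size 300 bp to either side averaged 58.6%, 58.5% and 58.3%, so the excess at the summit was 0.527, 1.52 and 1.47 percentage points, or 1.17 ± 0.561 (SD, n = 3, exact sign-flip p = 0.25). The excess was 12.5 ± 0.452 points at divergent promoters, 10.8 ± 1.15 far from TSSs and 5.65 ± 1.26 at the other single-promoter summits. Each replicate had a smaller excess in the member class than in each of the other classes, by 4.48 ± 0.893 points against the other single-promoter summits (exact sign-flip p = 0.25). In the optimal list, windows 300 bp before and after the members' summits held 62.0% and 54.9%, beside 59.4% at the summit. The excess of the class is thus over the mean of unlike sides. Along the DNA, the average of the member class was 63.1% at 75 bp before the summit, 59.8% at the summit and 52.9% at 100 bp after it. Divergent summits also had their highest average before the summit, with 68.8% at 50 bp before it and 66.9% at the summit. The size of the excess depended on the settings. It was 2.88 points with gene starts as TSSs and 3.67 with an upstream window of 300 bp. With comparison windows 1000 bp away it was 2.56, and in the upper 50% of each replicate's top regions 4.57. With all 30000 regions of a replicate in place of the top regions it turned to -2.65 points.

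**Figure D3:**
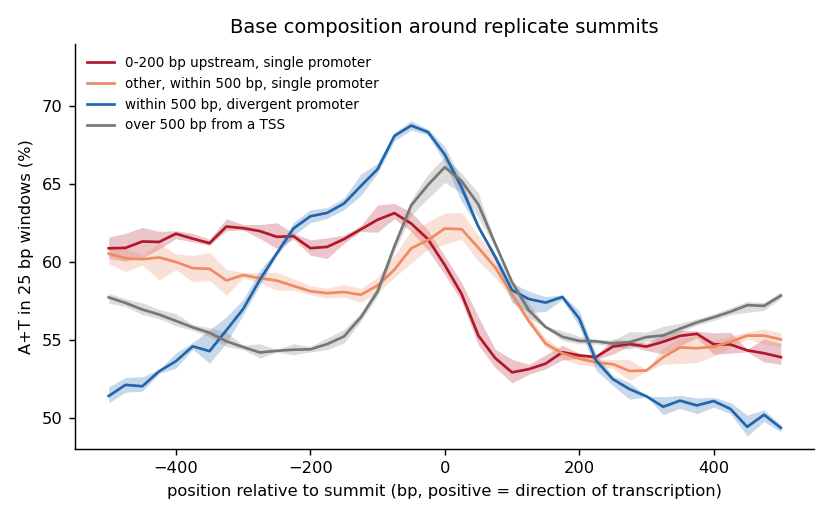
A and T in 25 bp windows (y axis, %) against position relative to the summit in bp (x axis, positive in the direction of transcription), for top regions of the replicates; lines are means of 3 replicates and bands run from the lowest to the highest. The member class goes from 63.1% at 75 bp before the summit to 52.9% at 100 bp after it, while divergent summits are highest at 50 bp before the summit, at 68.8%.

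Promoters without a region also changed in composition along their length. At the 9631 single-promoter TSSs without any pooled region, windows placed at the same distances from the TSS as the members' summits held 61.1% A and T, beside 59.4% at the members and 53.9% at the 1312 pooled regions of the class outside the optimal list. In 21 bp windows, these unbound promoters had 57.3% at the TSS itself and the promoters of members 53.1%, and 40 bp upstream the values were 58.2% and 50.3%. From 120 to 220 bp upstream the promoters of members had the higher values, with the widest gap at 180 bp (65.2% against 62.7%). Farther out the order changed from place to place, with 61.8% against 62.5% at 240 bp and 62.9% against 62.4% at 260 bp.

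Short words were counted on both strands within 50 bp of the summit. TATAAA was at 87 members (15%, Wilson interval 12.3 to 18.1), beside 13.2% in windows 300 bp away, 25.5% at divergent summits and 18.4% at unbound promoters. TATAAA was in 17.8% of the windows 300 bp upstream and 8.62% of those downstream, so it was rarer at the summit than on the upstream side. Over replicates its excess at the summit was 2.98 ± 0.391 points (SD, n = 3), against 14.3 ± 0.279 at divergent promoters and 11.0 ± 0.978 far from TSSs. The excess was 7.24 points in the upper 50% of each replicate's top regions and 5.42 with the 300 bp upstream window. It was 5.59 with gene starts and 5.95 for summits over 60 bp upstream. With 25 bp either side it was 1.18 ± 1.43 points (exact sign-flip p = 0.5), and with all 30000 regions of each replicate -0.249 points. GAGAG, a short stretch of GA repeat, showed the opposite contrast. It was at 127 members (21.9%, interval 18.7 to 25.4), beside 14.1% in windows 300 bp away and 11.96% at unbound promoters. The 1312 pooled regions of the class outside the optimal list held it at 25.9%, above the members. In replicates its excess was 6.70, 3.35 and 4.33 points at the member class. At the other classes the mean excess was -4.12, -4.32 and -5.15 points (other single-promoter, divergent and far summits, each below 0 in all 3 replicates). At the summit itself the mean share of GAGAG was 19.9% in the member class and 16.6% at the other single-promoter summits. Their comparison windows held 15.2% and 20.7%, so the contrast in excess lies partly in those windows. The longer word GAGAGAG, which contains GAGAG, was at 42 members (7.24%), beside 1.47% of far summits, 1.94% of unbound promoters and 8.99% of the pooled regions of the class outside the optimal list.

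Rarer words also differed between classes. TATCGATA was at 18 members (3.10%) and 1.77% of unbound promoters, and at 5 of 3395 far summits (0.147%). Divergent summits held it at a like share (14, 3.00%) and the other single-promoter summits seldom (3, 0.373%). In replicates its mean share was 2.29% at the member class and 3.76% at divergent summits. CAACACTG, a word chosen after values were seen, was at 19 members (3.28%) and at 0.479% of unbound promoters. It was also at 13 divergent summits (2.79%) and 8 other single-promoter summits (0.994%). The 1312 pooled regions of the members' class outside the optimal list held CAACACTG at 2.52% and TATCGATA at 2.29%, so neither word was particular to members. A word found in a window is a match of letters and no measured binding site of any factor.

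The place of a TATA box at the TSS itself was usually empty. TATAAA on the gene's strand began 45 to 20 bp upstream of the TSS at 16 of 580 members (2.76%, Wilson interval 1.71 to 4.43). The share was 8.78% at all 14816 single-promoter TSSs and 10.5% at those without a pooled region. With TATAA in its place the shares were 5.17%, 12.04% and 14.5%. TCAGT, the core of the initiator that spans many fly TSSs, began within 7 bp upstream to 3 bp downstream at 15.9% of members, 12.8% of all single-promoter TSSs and 10.3% of those without a pooled region.

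Signal and composition differed with distance from the TSS. The 115 members 0 to 50 bp upstream had a median signal of 131 and 51.01% A and T, the 140 up to 100 bp had 164 and 57.0%, the 164 up to 150 bp had 204 and 63.1%, and the 161 up to 200 bp had 197 and 63.8%. Unbound promoters at the same distances had 58.3%, 60.2%, 62.2% and 62.7%. Nearest the TSS the members were thus poorer in A and T than unbound promoters, and beyond 100 bp slightly richer. In replicates, the nearest band had 13.3 ± 1.83 points less A and T than the farthest (SD, n = 3, exact sign-flip p = 0.25, same direction in 3 of 3).

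Words also differed with distance. TATAAA was at 5.22%, 10.7%, 20.7% and 19.9% of members from the nearest band to the farthest. Unbound promoters at the same distances held it at 20.5%, 19.7%, 16.8% and 17.5%. TATCGATA was at 8 members in each of the nearest bands and at 1 in each of the others. Its shares at unbound promoters also fell with distance, from 3.59% and 2.62% to 0.837% and 0.658%. CAACACTG was at 10, 7, 2 and 0 members in that order, and 0 of 161 allows a share of up to 1.86% by counting error. At unbound promoters its shares were 0.930%, 0.571%, 0.282% and 0.280%, so both words were placed nearer the TSS there too. In replicates TATAAA was 13.7 ± 1.65 points less frequent in the nearest band than in the farthest, and TATCGATA 5.27 ± 2.42 points more frequent.

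Composition also differed with signal. Members were put in 4 groups of 145 by optimal signal, a division chosen after values were seen. The first group, with signals from 286 upwards, lay a median of 140 bp upstream and held 67.0% A and T. The next groups lay 121, 93 and 83 bp upstream with 61.1%, 55.2% and 54.3%. GAGAG was at 10, 30, 40 and 47 of 145 members from the first group to the last, or 6.90%, 20.7%, 27.6% and 32.4%. TATAAA was at 25.5%, 15.9%, 6.21% and 12.4%. The strong members were thus rich in A and T with few GA repeats, and the weak ones the reverse. Peaks in the first group were also narrower, with a median width of 262 bp beside 416 bp in the others, the commonest width in the optimal list.

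The difference between the first and last group had the same direction in every replicate when groups were cut from its own top regions, while the order of the middle and last groups varied. A and T differed by 8.52, 10.1 and 12.4 points, GAGAG by -24.3, -14.8 and -22.2 points and TATAAA by 11.3, 14.1 and 17.6 points. The GAGAG difference was larger in the member class than at the other single-promoter summits in each replicate, by -12.4 ± 5.11 points (SD, n = 3, exact sign-flip p = 0.25). Against divergent summits it was larger by -19.1 ± 4.85 points and against far summits by -15.9 ± 7.28 points. The A and T difference was not larger than at the other single-promoter summits in every replicate (1.35 ± 1.46 points, exact sign-flip p = 0.5). The GAGAG order was also seen within distance bands: inside each of the 4 distance bands, GAGAG was less frequent in members above the band's median signal than in those below it. Those shares were 12.3% and 39.7% in the band nearest the TSS, 20% and 28.6% in the next, 9.76% and 31.7% in the third, and 11.2% and 24.7% in the farthest.

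**Figure D4:**
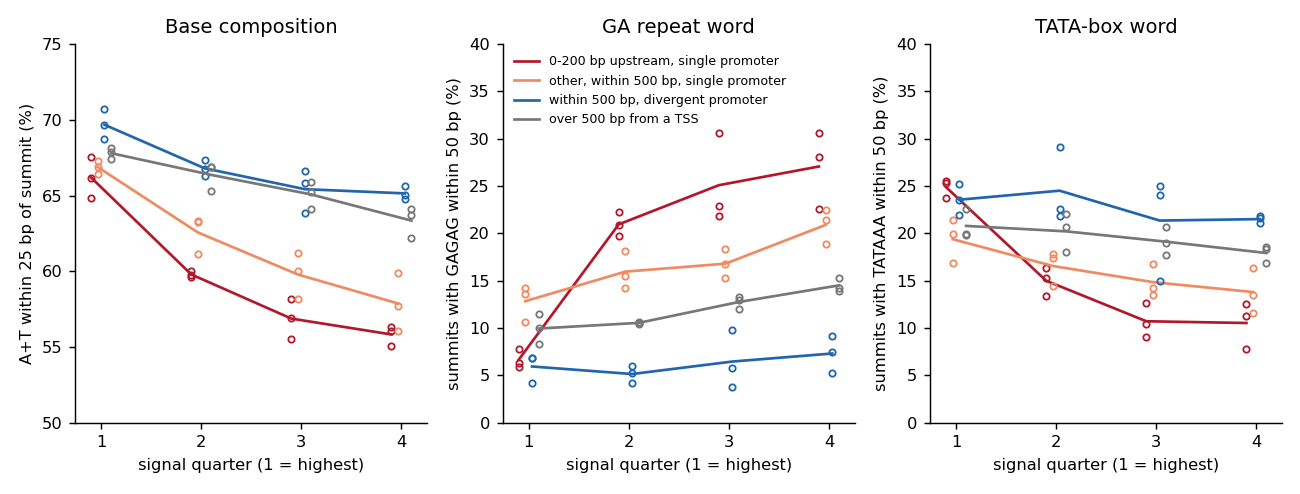
A and T in the 25 bp either side of summits (left, %), and summits with GAGAG (middle, %) or TATAAA (right, %) within 50 bp, against the signal group within each class and replicate (x axis, 4 groups of equal size, 1 with the highest signal); points are replicates and lines their means. GAGAG in the member class goes from 6.64% in the first group to 27.1% in the last, and TATAAA from 24.9% to 10.5%.

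Top regions of all 3 replicates overlapped 143 of the 145 members in the first group (98.6%), 135 in the second (93.1%), 87 in the third (60%) and 9 in the last (6.21%). The optimal list and the top regions end at the same number of regions, so the last group lies next to that limit by construction, and results on it rest on peaks that single replicates placed lower.

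Across genes, 559 of the 10779 protein-coding genes with a single-promoter TSS had a member, or 5.19%. Cytosolic ribosomal protein genes, which encode the parts of the ribosome that makes most cellular protein, were the list with the highest share, 23 of 60 (38.3%, Wilson interval 27.1 to 50.98). Because ribosomal promoters were already known to hold many peaks of these lists, this is a description of how the members are made up. In top regions of replicates 1, 2 and 3 the class held 19, 19 and 16 of the 60, or 30% ± 2.89 (SD, n = 3), where it held 5.24% ± 0.192 of all such genes. Another 5 ribosomal genes had a region of the class in the pooled list but none of the class in the optimal list. Counting optimal peaks of any promoter class, 55 ribosomal protein genes had one, beside 1632 genes of the full set. The ribosomal list holds 93 genes, 60 of them with a single-promoter TSS. The full set holds 13986 protein-coding genes, 10779 of them with a single-promoter TSS. The other promoter classes thus held many ribosomal promoters as well.

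Ribosomal members sat closer to the TSS. Their median distance was 12 bp, and 20 of 23 (87.0%) lay within 50 bp, beside 95 of the 557 other members (17.1%). Their A and T averaged 50.8%, as it did at the other members within 50 bp (50.98%). Their signals were higher than those of such neighbours, with a median of 206 beside 129, and top regions of all 3 replicates overlapped 17 of 23 beside 34 of 95. GAGAG was at 1 of the 23 and at 30 of the 95, and TATCGATA at 4 in each group. Of the 23 genes, 9 were on X, beside 88 of the 557 other members and 12 of the 95 within 50 bp. The share on X of all ribosomal protein genes with a single-promoter TSS was not counted.

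RpL23A had signals of 84.4, 142 and 113 in replicates 1, 2 and 3 and ranks 783, 748 and 995. RpL8 had signals of 76.1, 151 and 106, with its summit 6 bp upstream. RpL22 had signals of 86.9, 114 and 106, with its summit 36 bp upstream and a noncoding gene starting nearby. These 3 were top regions in each replicate. RpL11 (optimal signal 301) had no region in replicate 2, RpL9 (206) none in replicate 1 and RpL10 (109) none in replicate 3.

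**Figure D5:**
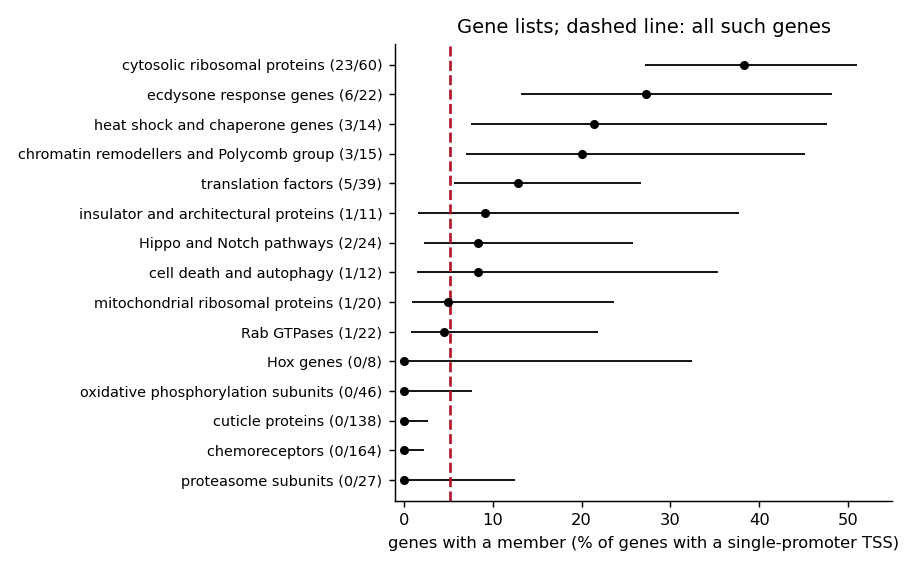
Percentage of genes with a single-promoter TSS that have a member (x axis) for each of 15 gene lists (y axis, with counts); points are the observed shares, bars their 95% Wilson intervals and the dashed line all such genes, at 5.19%. Cytosolic ribosomal protein genes lie farthest right at 38.3%, and 5 lists lie at 0.

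Genes of the ecdysone response, which the moulting hormone switches at metamorphosis, had members at 6 of 22 (27.3%, interval 13.2 to 48.2). Counting optimal peaks of any promoter class, 14 of these 22 genes had one. In the full set of 13986 protein-coding genes, 10779 of them with a single-promoter TSS, 1632 had one. Ldh, the lactate dehydrogenase gene, had signals of 94.5, 134 and 159 and a summit 174 bp upstream. Eip93F, a transcription factor gene of late metamorphosis, had signals of 70.1, 114 and 88.8 and a summit 58 bp upstream. The transcription factor gene br had signals of 45.7, 45.3 and 50.9, and its summit was 181 bp upstream. The first 2 were top regions in every replicate, as was br at ranks 2342, 4757 and 3746. Hr3, chinmo and ftz-f1, also transcription factor genes, had optimal signals of 138, 116 and 114, and each missed the top of at least 1 replicate.

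Heat shock and chaperone genes had members at 3 of 14 (21.4%, Wilson interval 7.57 to 47.6), where 5.19% of all genes with a single-promoter TSS had one. Besides Hsp27, Hsp83, the gene of the Hsp90 chaperone, had signals of 173, 206 and 237, and Hsp26 had 73.4, 134 and 146; both summits were near 100 bp upstream, at 103 and 104 bp. All 3 were top regions in each replicate. Translation factor genes had members at 5 of 39 (12.8%), led by eIF6 with signals of 230, 404 and 400. Its summit, 104 bp upstream, was nearer to the start of a noncoding antisense gene. The elongation factor genes eEF1gamma (114, 143 and 124) and eEF1alpha1 (58.1, 86.9 and 80.4) had summits 38 and 53 bp upstream. Chromatin remodeller and Polycomb group genes had 3 of 15 (20%, interval 7.05 to 45.2). These were Psc, ph-d and Su(z)2, which all encode Polycomb proteins, with optimal signals of 204, 195 and 151.

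The remaining lists had at most 2 members each, where 5.19% of all genes had one. Members lay at 2 of 24 Hippo and Notch pathway genes (8.33%, mam and kibra) and 1 of 20 mitochondrial ribosomal genes (5%, mRpL41). They also lay at 1 of 22 Rab GTPase genes (4.55%, Rab1) and 1 of 11 insulator genes (9.09%, BEAF-32). Of 12 cell death and autophagy genes, 1 had a member (8.33%, Atg8a). None lay at 138 cuticle protein genes, 164 chemoreceptor genes, 46 oxidative phosphorylation genes, 27 proteasome genes or 8 Hox genes. A count of 0 allows shares of up to 2.17%, 1.83%, 6.52%, 11.1% and 37.5% in that order, by counting error alone. These limits describe the counts and carry no test, since the lists were chosen with earlier results known. Counting optimal peaks of any promoter class, 1, 0, 4, 2 and 0 genes had one in the same order. The full lists, with or without a single-promoter TSS, hold 141, 179, 80, 48 and 8 genes. Among all protein-coding genes 1632 had one, where the set holds 13986 genes, 10779 of them with a single-promoter TSS. These counts are descriptions too, and the list of 8 Hox genes is too short to be set apart from all genes.

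CG7368 itself had 1 member. Its summit lay 83 bp upstream of an internal TSS of the gene, within chr3L:11601140-11601555, with signals of 28.8, 55.4 and 78.7 and ranks 4996, 3585 and 1921 in replicates 1, 2 and 3. The replicate summits were apart, 110 bp downstream of that TSS in replicate 1 and 120 and 59 bp upstream in replicates 2 and 3.

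Several members at different TSSs were found for 18 genes, with at most 3 in one gene. Ptpmeg2 had 3, with optimal signals of 978, 411 and 229. At CG13921, PAN3, brwl and Atat, each with a pair, the stronger member had a signal of 1472, 885, 794 and 619 and the weaker 108, 129, 336 and 191. The weaker member of CG13921 ranked 27056, 10174 and 2527 in replicates 1, 2 and 3, so its place depended on the replicate.

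At the low end, Pde11, a phosphodiesterase gene, had an optimal signal of 104.5, no region in replicate 1, and signals of 30.7 and 53.3 in replicates 2 and 3. The adenylyl cyclase gene rut had signals of 23.4, 69.0 and 27.5, and Cdep had 23.6, 26.1 and 58.2. A single replicate had each of these 3 among its top regions.

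The limit of 200 bp cut through a continuous distribution. Just inside it, CG11438 lay at 200 bp with a signal of 161, and 8 peaks lay at 199 bp, with signals from 112 at orion to 958 at aay. Dp and CG11151, 1 bp outside it, had signals of 638 and 632, and CG43658, CG10165 and Pomp, at 202 bp, had 511, 418 and 257.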

How the data were processed

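The series holds peak lists and no reads. Per the labels, ChIP-seq was done on 3 biological replicates. According to the description deposited with the files, the authors called regions on each replicate and on all 3 together with a control alignment, and kept an optimal list by the irreproducible discovery rate (IDR), which judges how well ranks repeat. The signal of a region is the authors' deposited value, whose formula no header gives. The −log10 q-value was deposited by the authors and was not used in a comparison. Aligner, peak caller and depth are not stated, so intervals cover counting error only. Lists in dm3 coordinates were not used here.

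Summits were placed on TSSs of every protein-coding transcript in Ensembl release 115 (dm6), and the RefSeq genome of that assembly gave base composition. Summits other than the members' class were divergent (opposite-strand TSS of another gene within 500 bp), other single-promoter (within 500 bp) or far. A region of a replicate was matched to a member by at least 1 bp of overlap, taking the one of highest signal. Composition was read within 25 bp of the summit and words within 50 bp, each against windows 300 bp to both sides. Replicates were compared by two-sided exact sign-flip tests, with no test over regions or genes. Python 3.11.15, numpy 2.4.6, pandas 2.3.3 and scipy 1.17.1 were used, and class assignment, word counts and the sign-flip test were tested on simulated data.

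The members, gene lists, words and named genes were chosen with earlier results of these data known. Named genes are CG7368, the 25 members of highest signal, the 3 highest of each gene list, the 3 lowest, those next to the 200 bp limit and the 5 strongest genes with several members. Other ribosomal and list genes, and the second set of sequences, were named after their values were seen. Gene lists were matched by symbol or by a pattern of the symbol, so they may hold genes of another function.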

Additional observations from a re-analysis of the deposited data

How the results depend on the processing

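The number of members depended on the definition of the class. Members made up 7.47% of optimal peaks with the TSS at the start of the gene record, 4.86% with an upstream window of 100 bp, 15.8% with 300 bp and 9.38% with an opposite-strand window of 1000 bp, against 11.1% as reported. Of the 25 strongest members, 16, 4, 25 and 22 stayed members in that order. The share of pooled regions held in the optimal list was 25.1% with the 100 bp window. The share of genes with a member was 3.79% with gene starts and 2.76% in the upper 50% of peaks by signal. In these peaks 95.4% of members were in the top of all 3 replicates, against 51.4% with a 50% reciprocal overlap, 58.3% with summits within 100 bp and 71.9% to 73.8% when 1 replicate was left out and 2 remained. The median span of summits was 36 bp when summits had to lie within 100 bp. TATAA in place of TATAAA was at 5.17% of members before the TSS.

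Directions over replicates changed in 4 cases. The log2 ratio of median signal was -0.14 against the other single-promoter summits with the 100 bp window. It was 0.013 against divergent promoters in the upper 50% of each replicate's top regions. With all regions of a replicate, the A and T difference was -2.65 points and the TATAAA difference -0.249 points; the cause was not tested. Leaving out 1 replicate gave 5.55 to 6.04 points for the excess of the class in top regions, 1.41 to 1.58 for the log2 ratio of upstream to downstream summits and 0.9995 to 1.497 points for A and T. Of 97 alternative values, 78 kept their direction or stayed within the interval of the reported value.

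Alternatives added after seeing the data kept the direction of the group differences. A and T differed between the first and last signal group by 9.25 to 11.8 points over them. GAGAG differed by -25.0 to -17.7 points, and GAGAGAG by -4.48 points. The excess of ribosomal protein genes was 19.6 points with gene starts and 16.4 points with the 1000 bp window, against 24.8 points.

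No paired analysis was possible because the series holds a single group. The 3 replicates bound the sign-flip p at 0.25, and unknown depth leaves signals comparable only within a list.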
